A study of Mus musculus with 6 samples.

Results

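The 38 homeobox and regional patterning factors described here are a list of gene symbols, chosen with earlier results of these data known. Each was read from the probe sets annotated to that gene alone, and, where a gene had several, from the one with the highest mean over the 6 arrays. All 38 had such a probe set, out of 18193 genes on the array, and 86 probe sets stood for them in all. For the account below they fall into 5 dorsal forebrain factors, 10 ventral and anterior forebrain factors, 5 factors of other regions, 7 TALE factors, 4 class III POU factors, 5 zinc finger or CUT factors, and Hopx with Six5.

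Homeobox genes encode transcription factors that bind DNA through a homeodomain, and many of them give regions of the developing nervous system their identity. In the forebrain, Emx, Lhx2 and Pax6 mark the dorsal side, from which the cortex and hippocampus form, while Gsx2, Dlx, Nkx2-1 and Lhx6 mark the ventral side, a source of inhibitory neurons. Many factors of the TALE, POU, zinc finger and CUT classes act more widely, and stem cells of the adult brain are known to keep part of the regional code of their origin.

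The study compared mouse neural stem cells labelled Spot14 GFP positive with those labelled Spot14 GFP negative, where GFP is green fluorescent protein and Spot14 the protein encoded by Thrsp, which is linked to lipid synthesis. By its title the series concerns lipid synthesis and the activity of adult neural stem cells. Each group had 3 samples of total RNA, with 1 array per sample, and the design text calls them biological replicates. The labels used here do not state the reporter allele, strain, age, brain region, culture or the way the cells were separated. Whether the replicates are separate animals or cultures is not stated either, so the p-values measure only the spread between these samples, which may be technical.

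Signals are log2 values after GCRMA, a method that subtracts a sequence-based background and brings the arrays to a common distribution. The brightness of a probe set depends on its probes as well as on its transcript, so levels are read against log2 4, a working limit near background, and not between genes. The array medians lay between 3.55 and 3.66 in GFP positive samples, and between 3.65 and 3.66 in GFP negative samples. The label was met by stem cell genes, as Sox2, a transcription factor of neural stem cells, averaged 12.40 in GFP positive and 11.83 in GFP negative cells, and Nes, an intermediate filament of these cells, averaged 11.22 in GFP positive and 11.71 in GFP negative cells. Thrsp itself averaged 14.21 in GFP positive and 13.56 in GFP negative cells (limma adjusted p = 0.0893). Differences below are GFP positive minus GFP negative.

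One array was unlike its group. On the second principal component of all tested genes GFP negative replicate 3 had a score of 36.77, and replicates 1 and 2 of that group had −31.94 and −33.81. Among the 27 tested factors, the standard deviation was smaller in GFP positive cells than in GFP negative cells for 23, and its median was 0.16 in GFP positive cells, against 0.40 in GFP negative cells. Over all 10531 genes tested, 80.2% also had the larger spread in GFP negative cells. In 14 of the 27 factors, or 51.9%, replicate 3 was the GFP negative array farthest from the mean of the other two, as it was for 57.3% of all genes. Estimates of 0.2 or more in size that a single array moved by over 1.5 times are also given without that array.

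In the blocks as drawn here, most dorsal forebrain factors and all TALE, POU, zinc finger and CUT factors had signal. Most of the ventral and anterior forebrain block lay near background. This division depends on the grouping, as Nkx2-2, a factor of ventral neural progenitors with a mean of 8.01, is counted under other regions. Genes outside the 38 were not divided in this way, and some would not follow the division. Olig2, of ventral progenitors, averaged 12.68, while Eomes and Tbr1, of the dorsal forebrain, averaged 3.74 and 3.35. Others would follow it, such as Shh, a ventral signal, at 2.54. Of the 38, 27 averaged above log2 4 over the 6 arrays. These were 4 of 5 dorsal factors, 2 of 10 ventral and anterior factors, 3 of 5 factors of other regions, and all 18 of the TALE, POU, zinc finger, CUT and remaining factors. The same 27 were tested for a difference, since in each of them at least 3 of the 6 arrays read 4 or more. Of all 18193 genes on the array, 10531 met this filter. Of 123 other homeobox genes on the array, 29 averaged above log2 4. The 38 were chosen with earlier results known, so their larger share is not a trait of such factors. Nearest to the limit from above were Otx1, at a mean of 4.81, Six5, at 4.94, and Otx2, at 4.99. Nearest from below were Nkx6-2, at 3.79, Dlx1, at 3.48, and Lhx6, at 3.47. A mean under the limit says only that this probe set gave no signal above it.

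**Figure D1:**
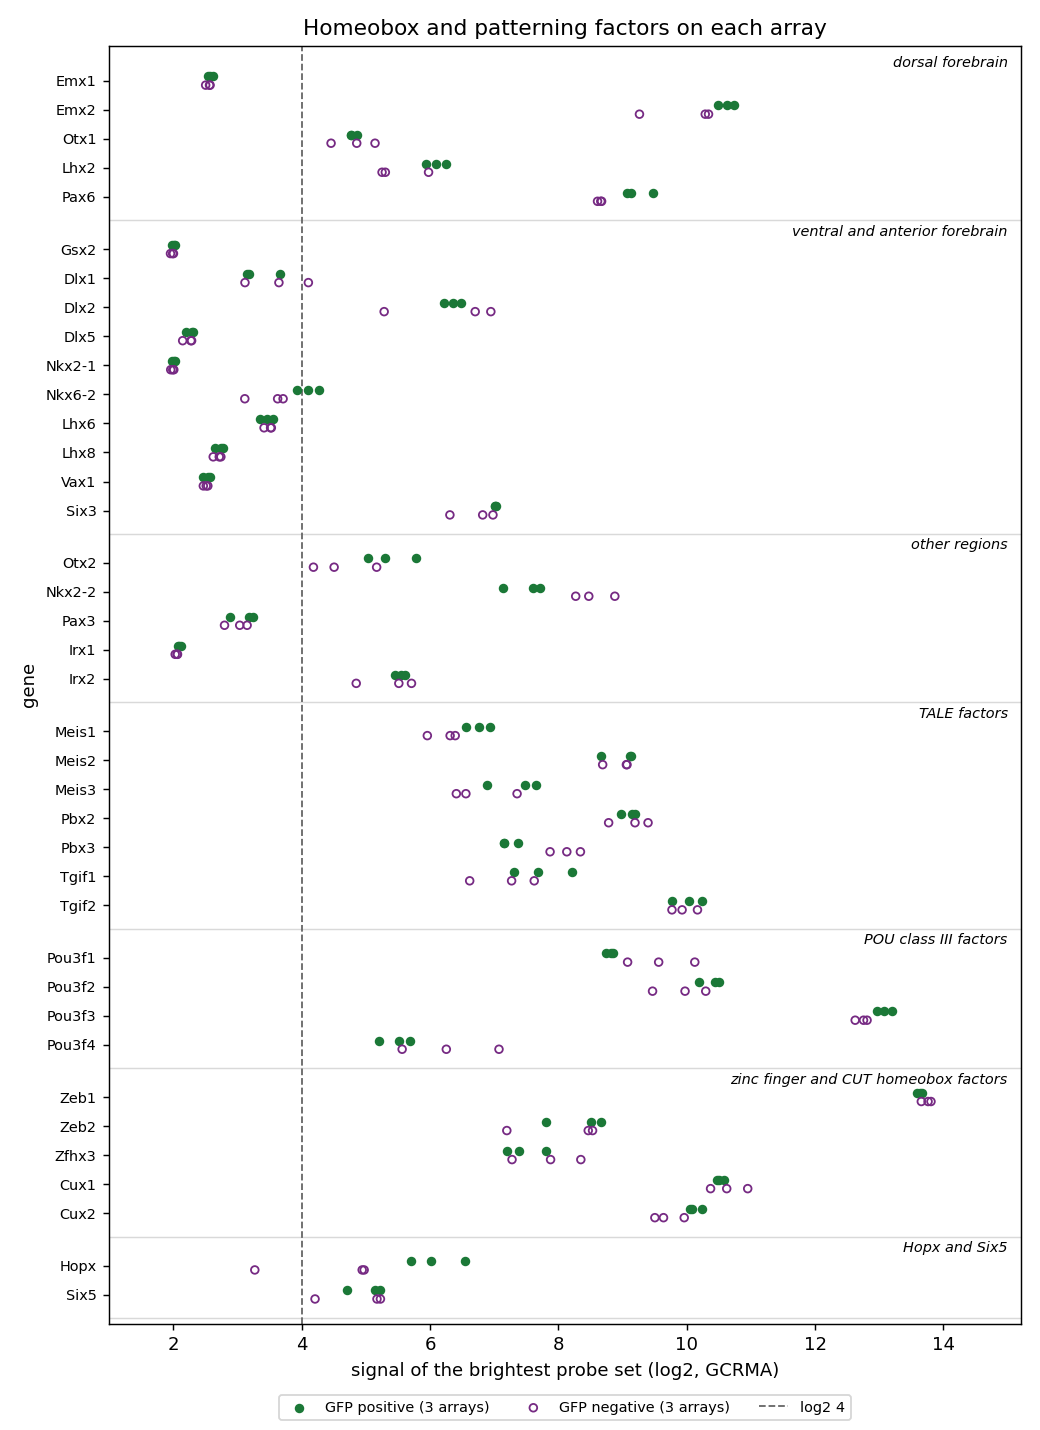
Signal of each of the 38 factors on every array (x axis, log2 after GCRMA; y axis, genes in blocks by role); filled points are the 3 GFP positive and open points the 3 GFP negative arrays, and the dashed line marks log2 4. Of the 10 ventral and anterior forebrain factors only Dlx2 and Six3 average to the right of the line, while 4 of 5 dorsal factors do, and the open points are spread more widely than the filled ones for 23 of the 27 tested factors.

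One of the 27 tested factors, the TALE cofactor Pbx3, fell in GFP positive cells, and the other 26 did not pass the test. By limma, with Benjamini-Hochberg adjustment over all 10531 genes and a threshold of 0.05, 0 factors were higher and 1 was lower. Over all genes tested, 2.35% were higher and 2.11% lower, so these counts are near the background. In RNA of many cells, fewer cells of a type and less RNA per cell cannot be told apart. An unadjusted limma p under 0.05 was reached by 5 factors with higher values (Lhx2, Pax6, Otx2, Meis1 and Hopx) and 3 with lower values (Nkx2-2, Pbx3 and Pou3f1) in GFP positive cells. These 8 are 29.6% of the tested factors. Of all genes tested, 9.92% met this weaker criterion with higher and 8.28% with lower values, 18.2% in all. The groups did not overlap for 10 of the 27 factors, or 37.0%, 7 with higher and 3 with lower values in GFP positive cells. Over all genes 13.8% were higher and 11.5% lower without overlap, 25.3% in all. The median difference was 0.18 over the 27 factors and 0.00 over all genes tested. Of the 27, 15 (55.6%) differed by less than 0.5 in either direction, against 75.9% of all genes tested, and 2, Hopx and Nkx2-2, differed by more than 1.

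**Figure D2:**
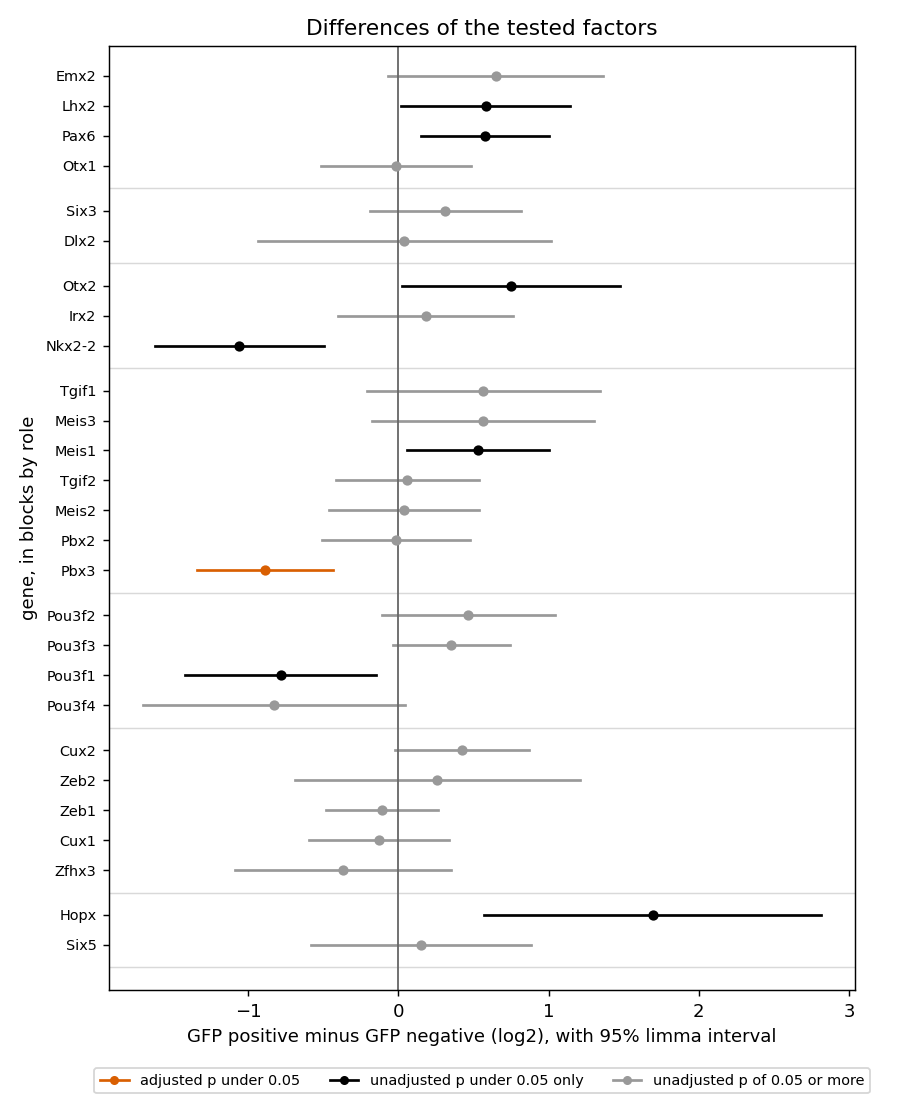
Difference of each of the 27 tested factors (x axis, GFP positive minus GFP negative in log2; y axis, genes in blocks by role), with points for the limma estimate and bars for its 95% interval. Only Pbx3, at −0.89, passed the adjusted threshold, and 7 further factors, drawn in black, had an interval that leaves out 0 without passing it.

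Markers of cell division and of astrocytes moved with the groups, and their part in the differences of the factors was not tested. All 14 measured genes of a mitosis list were lower in GFP positive cells past the threshold, led by Ttk at −2.68 and Cenpe at −2.55. The log2 of the list's summed signal lay between 10.8 and 11.4 on GFP positive arrays and between 12.6 and 13.3 on GFP negative arrays. Of 11 tested astrocyte markers (12 on the array), 6 were higher, led by Sparcl1 at 2.23 and Slc6a11 at 1.53, and the summed signal lay between 15.6 and 15.7 on GFP positive arrays and between 14.7 and 14.9 on GFP negative arrays. The probe set for 18S ribosomal RNA, a control for the makeup of the RNA, also moved with the groups, at 12.8 to 13.0 on GFP positive arrays against 13.4 to 14.1 on GFP negative arrays. Of the other lists, 1 of 3 tested neuroblast and neuron genes (Elavl4) and the single tested endothelial or mural gene (Acta2) were lower, while 0 of 4 oligodendrocyte lineage, 0 of 5 ependymal or choroid plexus and 0 of 1 microglial genes passed in limma, with 2, 2 and 0 at an unadjusted p under 0.05. Of the 12 neuroblast and neuron genes 3 had signal. Map2 averaged 12.46 in GFP positive and 12.80 in GFP negative cells, Gad1 averaged 8.49 in GFP positive and 7.94 in GFP negative cells, and Elavl4 averaged 5.90 in GFP positive and 7.48 in GFP negative cells. The other 9 averaged under log2 4.

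The windows shown next are the 250 bases before the first annotated start, taken from the RefSeq promoter table of GRCm38.p6, of the 6 factors with an unadjusted p under 0.05 that have a window there. They are shown for their copies of the core sequence that many homeodomains bind. Capitals mark this core, TAAT on either strand (TAAT or ATTA as printed).
Lhx2: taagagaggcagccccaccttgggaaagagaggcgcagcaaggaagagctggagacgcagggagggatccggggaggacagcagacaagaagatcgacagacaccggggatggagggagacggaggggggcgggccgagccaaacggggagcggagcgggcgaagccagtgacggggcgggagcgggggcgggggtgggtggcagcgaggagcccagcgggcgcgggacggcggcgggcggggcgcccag
Pax6: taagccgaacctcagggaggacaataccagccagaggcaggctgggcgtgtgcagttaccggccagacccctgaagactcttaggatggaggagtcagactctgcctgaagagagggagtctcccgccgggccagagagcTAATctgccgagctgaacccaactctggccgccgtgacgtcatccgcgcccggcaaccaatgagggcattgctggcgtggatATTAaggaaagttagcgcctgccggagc
Otx2: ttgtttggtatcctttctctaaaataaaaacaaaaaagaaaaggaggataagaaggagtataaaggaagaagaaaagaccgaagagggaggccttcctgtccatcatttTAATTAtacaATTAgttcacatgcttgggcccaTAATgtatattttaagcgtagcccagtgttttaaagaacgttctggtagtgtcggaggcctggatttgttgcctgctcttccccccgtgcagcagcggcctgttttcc
Nkx2-2: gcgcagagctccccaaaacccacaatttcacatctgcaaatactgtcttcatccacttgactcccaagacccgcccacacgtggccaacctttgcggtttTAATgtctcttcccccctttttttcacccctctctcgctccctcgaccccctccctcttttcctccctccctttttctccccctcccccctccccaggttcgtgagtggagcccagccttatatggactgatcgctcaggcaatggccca
Meis1: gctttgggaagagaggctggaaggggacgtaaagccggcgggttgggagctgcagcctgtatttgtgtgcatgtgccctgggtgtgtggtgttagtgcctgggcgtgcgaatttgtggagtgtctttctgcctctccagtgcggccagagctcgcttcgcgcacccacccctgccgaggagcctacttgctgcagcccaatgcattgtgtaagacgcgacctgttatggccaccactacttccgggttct
Hopx: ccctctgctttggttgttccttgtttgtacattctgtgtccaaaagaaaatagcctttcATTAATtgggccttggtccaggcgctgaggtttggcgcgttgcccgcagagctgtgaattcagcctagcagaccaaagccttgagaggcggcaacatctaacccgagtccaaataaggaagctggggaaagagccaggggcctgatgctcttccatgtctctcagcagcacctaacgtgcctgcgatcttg

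These windows lie at chr2:38339031-38339280 on the plus strand for Lhx2, at chr2:105668646-105668895 on the plus strand for Pax6 and at chr14:48667645-48667894 on the minus strand for Otx2. Those of the others are at chr2:147186403-147186652 on the minus strand for Nkx2-2, at chr11:19018970-19019219 on the minus strand for Meis1 and at chr5:77115124-77115373 on the minus strand for Hopx. They hold 0, 2, 4, 1, 0 and 2 copies of the core in the order printed. Of the 38 factors 31 had a window in the table, and 14 of these first windows (45.2%) hold the core, as do 55.3% of the first windows of all 27025 genes. The core was present in 11 of the 23 windows of factors above log2 4 and in 3 of the 8 of factors that were not. The GC content of the first windows had a median of 62.8% over these 31 factors, 62.8% over the 23 above log2 4 and 62.6% over the 8 that were not, against 52% over all genes. A match in letters is a description of the window and not of a bound site.

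Among the dorsal forebrain factors, Emx2, Pax6, Lhx2 and Otx1 had signal in both groups and Emx1 did not, and none passed the test. Emx2, which is needed for the hippocampal dentate gyrus to form, measured 10.48, 10.73 and 10.62 on the GFP positive arrays, against 10.34, 10.29 and 9.26 on the GFP negative arrays. GFP negative replicate 3 was the low array, about 1 log2 unit below the rest of its group. The groups did not overlap, and the difference was 0.65 (95% interval −0.07 to 1.36, limma adjusted p = 0.330). Without that array it was 0.30.

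Pax6, a paired-domain and homeodomain factor of radial glia and of neurogenesis, measured 9.48, 9.12 and 9.07 on the GFP positive arrays, against 8.66, 8.61 and 8.67 on the GFP negative arrays. Every GFP positive array lay above every GFP negative array, and the 3 GFP negative arrays were within 0.1 of each other. The difference was 0.58 (95% interval 0.15 to 1.00, limma adjusted p = 0.142), or 1.49-fold. A dimmer probe set of Pax6 read 4.44 ± 0.82 in GFP positive and 3.45 ± 0.81 in GFP negative cells (SD, n = 3 each), with the same sign and overlapping groups.

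Lhx2, a LIM homeodomain factor that specifies cortex, measured 6.24, 6.09 and 5.94 on the GFP positive arrays, against 5.25, 5.30 and 5.98 on the GFP negative arrays. Here GFP negative replicate 3 read like the GFP positive arrays and made the groups overlap. The difference of 0.58 (95% interval 0.02 to 1.14, limma adjusted p = 0.259) did not pass with all arrays. Without GFP negative replicate 3 it was 0.81 and passed (limma adjusted p = 0.0263). Over all genes tested, that fit called 801 higher, against 248 with all arrays, so passing without this array was not particular to Lhx2. Otx1, an orthodenticle factor of the forebrain, measured 4.77, 4.77 and 4.86 on the GFP positive arrays, against 4.86, 5.14 and 4.46 on the GFP negative arrays, and the groups overlapped (difference −0.02, interval −0.52 to 0.49). Emx1, a marker of the cortical lineage, read 2.54 to 2.62 in GFP positive cells, against 2.50 to 2.57 in GFP negative cells.

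Of the ventral and anterior forebrain factors, only Dlx2 and Six3 averaged above log2 4. Dlx2, which drives the formation of inhibitory neurons, measured 6.36, 6.48 and 6.21 on the GFP positive arrays, against 6.95, 5.28 and 6.70 on the GFP negative arrays. The GFP negative arrays lay on both sides of the GFP positive ones, with replicate 2 the lowest of all. The difference was 0.04 (95% interval −0.94 to 1.01, limma adjusted p = 0.978). Six3, a factor of the most anterior forebrain and the eye, measured 7.03, 7.01 and 7.01 on the GFP positive arrays, against 6.31, 6.82 and 6.98 on the GFP negative arrays. The GFP positive arrays agreed within 0.1 and lay just above all GFP negative arrays, with a difference of 0.31 (95% interval −0.19 to 0.82, limma adjusted p = 0.527). Without GFP negative replicate 1, the lowest, it was 0.12.

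The remaining 8 ventral and anterior factors were near background. Gsx2, a factor of the lateral ganglionic eminence, read 1.97 to 2.02 in GFP positive cells, against 1.95 to 2.00 in GFP negative cells. Nkx2-1, the selector of the medial ganglionic eminence, read 1.98 to 2.03 in GFP positive cells, against 1.96 to 2.01 in GFP negative cells. Lhx6 and Lhx8, which act with Nkx2-1 in that eminence, averaged 3.45 and 2.72 in GFP positive cells, against 3.48 and 2.69 in GFP negative cells. Dlx5, a Dlx gene of maturing inhibitory neurons, averaged 2.27 in GFP positive and 2.23 in GFP negative cells, and Vax1, a factor of the ventral forebrain and optic stalk, 2.52 in GFP positive and 2.50 in GFP negative cells.

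Dlx1 and Nkx6-2 lay closest to the limit. Dlx1 measured 3.66, 3.18 and 3.15 on the GFP positive arrays, against 3.12, 3.64 and 4.10 on the GFP negative arrays, and only GFP negative replicate 3 passed log2 4. Dlx1 and Dlx2 lie next to each other in the mouse genome (RefSeq annotation of GRCm38.p6), with 0 protein-coding genes between them, and only Dlx2 gave a mean above the limit. Nkx6-2, a factor of ventral neural progenitors and oligodendrocytes, measured 4.09, 4.26 and 3.92 on the GFP positive arrays, against 3.71, 3.11 and 3.62 on the GFP negative arrays. Its groups did not overlap, but only 2 arrays reached 4 and it was not tested.

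Among factors of other regions, Nkx2-2 differed most and narrowly missed the threshold. Nkx2-2, a factor of ventral neural progenitors and of the oligodendrocyte lineage, measured 7.71, 7.60 and 7.14 on the GFP positive arrays, against 8.27, 8.88 and 8.47 on the GFP negative arrays. All GFP positive arrays lay below all GFP negative arrays. The difference was −1.06 (95% interval −1.62 to −0.49, limma adjusted p = 0.0570), or 2.08-fold lower. Without GFP negative replicate 3 it was −1.09 and passed (limma adjusted p = 0.0441), and with any other single array left out it did not. The 4 tested oligodendrocyte lineage markers differed in both directions without passing, by −1.31 for Cspg4, −0.54 for Pdgfra, −0.11 for Olig1 and 0.37 for Cnp. The groups did not overlap for Cspg4 and Pdgfra, both lower in GFP positive cells, nor for Cnp, which was higher. The other 4 on the array averaged under log2 4. The summed signal of the list lay between 13.6 and 13.8 on GFP positive arrays and between 13.5 and 13.7 on GFP negative arrays. Cspg4 and Pdgfra, with means of 7.35 and 5.61, add little to this sum beside Cnp and Olig1, at 12.72 and 12.41. The part of these markers in the difference of Nkx2-2 was not tested.

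Otx2, a factor of forebrain, midbrain and choroid plexus, measured 5.78, 5.03 and 5.30 on the GFP positive arrays, against 4.18, 4.50 and 5.17 on the GFP negative arrays. GFP negative replicate 3 lay within the range of the GFP positive arrays and the groups overlapped. The difference was 0.75 (95% interval 0.03 to 1.48, limma adjusted p = 0.257), and 1.03 without that array, when it passed (limma adjusted p = 0.0481). Of the 8 ependymal and choroid plexus markers, Ttr, Kl and Tmem212 averaged under log2 4. The 5 tested ones differed by 0.81 for Enkur, 0.72 for Dynlrb2, 0.46 for Ccdc153, 0.27 for Foxj1 and −0.05 for Rarres2, and none passed. The summed signal of that list was 8.96 to 9.34 on GFP positive arrays against 8.52 to 9.56 on GFP negative arrays. The part of these markers in the difference of Otx2 was not tested.

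Irx2, an Iroquois factor, measured 5.46, 5.54 and 5.61 on the GFP positive arrays, against 5.51, 5.71 and 4.85 on the GFP negative arrays, and the groups overlapped. Its neighbour Irx1, with 0 protein-coding genes between them, read 2.07 to 2.12 in GFP positive cells, against 2.03 to 2.06 in GFP negative cells. The difference of Irx2 was 0.18 and was −0.073 without GFP negative replicate 3, its low array. Pax3, a paired-box factor of the dorsal neural tube and neural crest, read 2.88 to 3.24 in GFP positive cells, against 2.80 to 3.15 in GFP negative cells.

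All 7 TALE factors, which bear an extended homeodomain, averaged above log2 4, and 1 of them, Pbx3, fell. The Pbx and Meis proteins among them act as cofactors of other homeodomain proteins. Pbx3, a partner of Hox and Meis proteins, measured 7.15, 7.37 and 7.15 on the GFP positive arrays, against 7.87, 8.34 and 8.13 on the GFP negative arrays. All GFP positive arrays lay below all GFP negative arrays. The means were 7.23 ± 0.13 in GFP positive and 8.11 ± 0.24 in GFP negative cells (SD, n = 3 each), a difference of −0.89 (95% interval −1.34 to −0.44, limma adjusted p = 0.0490), or 1.85-fold lower. An exact 2-sided permutation test of these values gave p = 0.1, the smallest that 3 against 3 arrays allow.

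The call of Pbx3 held in 4 of the 16 other settings tried, over which the limma adjusted p was 0.0191 to 0.217. It was lost when any array other than GFP negative replicate 3 was left out (limma adjusted p = 0.0526 to 0.217) and held without that one (0.0372). Its probe set carries the suffix of probes that can match other transcripts. The other probe set of Pbx3 averaged 3.45 in GFP positive and 4.28 in GFP negative cells and was not tested, since only 2 arrays reached 4. Pbx2, a related factor, measured 9.19, 8.98 and 9.15 on the GFP positive arrays, against 9.40, 9.19 and 8.78 on the GFP negative arrays, with overlapping groups and a difference of −0.02 (interval −0.51 to 0.47). The difference between these 2 genes was not tested.

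The 3 Meis factors, partners of Pbx proteins, did not pass. Meis1 measured 6.76, 6.94 and 6.56 on the GFP positive arrays, against 6.39, 6.31 and 5.96 on the GFP negative arrays. The GFP positive arrays were all above the GFP negative ones, with a difference of 0.53 (95% interval 0.06 to 1.00, limma adjusted p = 0.216), but a second probe set of Meis1 differed by −0.11 with overlapping groups. Meis2, a factor of olfactory bulb progenitors, measured 9.12, 9.14 and 8.67 on the GFP positive arrays, against 9.06, 8.69 and 9.07 on the GFP negative arrays, with a difference of 0.04. Meis3 measured 7.65, 7.48 and 6.89 on the GFP positive arrays, against 6.41, 6.56 and 7.36 on the GFP negative arrays, where GFP negative replicate 3 was the array that made the groups overlap, with a difference of 0.56 (95% interval −0.17 to 1.30, limma adjusted p = 0.418). Without that array the difference of Meis3 was 0.86 and did not pass (limma adjusted p = 0.0731).

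Tgif1 and Tgif2, TALE repressors that dampen TGF-beta signalling, had overlapping groups. Tgif1 read 7.31 to 8.22 in GFP positive cells, against 6.62 to 7.62 in GFP negative cells, a difference of 0.57 (95% interval −0.21 to 1.34, limma adjusted p = 0.442). It was 0.33 without GFP positive replicate 1 and 0.29 without GFP negative replicate 2. Tgif2 read 9.77 to 10.23 in GFP positive cells, against 9.77 to 10.17 in GFP negative cells, a difference of 0.06.

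The 4 class III POU factors, which bind DNA through a POU domain beside the homeodomain and act in neural progenitors, all had signal, with estimates on both sides of 0 and none past the threshold. Pou3f1 (also called Oct6), known from myelinating Schwann cells, measured 8.74, 8.85 and 8.82 on the GFP positive arrays, against 10.12, 9.56 and 9.08 on the GFP negative arrays. The GFP positive arrays agreed within 0.2 and lay below all GFP negative arrays, which were spread over about 1 log2 unit. The difference was −0.78 (95% interval −1.42 to −0.15, limma adjusted p = 0.178). Without GFP negative replicate 3, the GFP negative array nearest to the GFP positive ones, it was −1.04 and passed (limma adjusted p = 0.0258). Without GFP negative replicate 1, the highest, it was −0.52.

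Pou3f4 measured 5.52, 5.69 and 5.20 on the GFP positive arrays, against 6.25, 5.56 and 7.07 on the GFP negative arrays. GFP negative replicate 3 was the high array, and replicate 2 of that group lay among the GFP positive arrays. The difference was −0.83 (95% interval −1.70 to 0.05, limma adjusted p = 0.305), and −0.44 without replicate 3. Pou3f2 and Pou3f3, also called Brn2 and Brn1 and known from cortical progenitors, had estimates of the other sign. Pou3f2 measured 10.20, 10.44 and 10.50 on the GFP positive arrays, against 10.30, 9.97 and 9.47 on the GFP negative arrays, with a difference of 0.47 (95% interval −0.11 to 1.04, limma adjusted p = 0.384), and 0.24 without GFP negative replicate 3. Pou3f3 measured 12.97, 13.08 and 13.19 on the GFP positive arrays, against 12.75, 12.81 and 12.62 on the GFP negative arrays, without overlap, with a difference of 0.35 (95% interval −0.04 to 0.74, limma adjusted p = 0.331).

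The zinc finger and CUT factors had signal throughout, and none passed. Zeb1, a repressor of epithelial genes that binds E-box sequences, measured 13.67, 13.64 and 13.58 on the GFP positive arrays, against 13.76, 13.80 and 13.65 on the GFP negative arrays, a difference of −0.11. Zeb2, its relative, measured 7.81, 8.66 and 8.51 on the GFP positive arrays, against 8.53, 8.46 and 7.20 on the GFP negative arrays, a difference of 0.26 (95% interval −0.69 to 1.21, limma adjusted p = 0.812). GFP negative replicate 3 was its lowest array, and without it the difference was −0.17. With another single array left out it was 0.09 to 0.52, lowest without GFP positive replicate 2 and highest without GFP positive replicate 1. Zfhx3, a large protein with many zinc fingers and homeodomains, read 7.19 to 7.81 in GFP positive cells, against 7.28 to 8.35 in GFP negative cells, and the groups overlapped. Its difference was −0.37, or −0.23 without GFP positive replicate 3. Leaving out GFP negative replicate 2 gave −0.11, and leaving out replicate 3 of that group gave −0.65.

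Cux1 and Cux2 are CUT factors known from upper-layer cortical neurons. Cux1 read 10.47 to 10.59 in GFP positive cells, against 10.37 to 10.95 in GFP negative cells, with a difference of −0.13. Cux2 measured 10.24, 10.08 and 10.05 on the GFP positive arrays, against 9.64, 9.96 and 9.50 on the GFP negative arrays, without overlap. The difference of Cux2 was 0.42 (95% interval −0.02 to 0.87, limma adjusted p = 0.300).

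Hopx had the largest estimate of the 27 tested factors and did not pass the test. It is a small homeodomain protein that does not bind DNA itself and is known as a marker of quiescent stem cells. It measured 6.55, 6.02 and 5.70 on the GFP positive arrays, against 4.97, 3.27 and 4.94 on the GFP negative arrays. The groups did not overlap, and GFP negative replicate 2 was under log2 4. The difference was 1.69 (95% interval 0.57 to 2.81, limma adjusted p = 0.106), or 3.23-fold, with the widest interval of the 27 factors. The limma adjusted p was 0.0545 to 0.318 when single arrays were left out. A second probe set, of the kind that can match other transcripts, averaged 3.67 in GFP positive and 3.40 in GFP negative cells. GFP negative replicate 2, the lowest array for Hopx, also stood out in a measure of RNA quality. The log2 ratio of 3′ to 5′ signal of control transcripts, which grows as RNA is degraded or copied short, was 1.52, 1.63 and 1.60 on the GFP positive arrays, against 1.51, 2.49 and 1.82 on the GFP negative arrays. With this ratio as a covariate the difference of Hopx was 1.01, and without GFP negative replicate 2 it was 1.13. Over all genes tested, the same covariate took the number called higher from 248 to 9. The part of RNA quality in the difference of Hopx was not tested. Six5, of the sine oculis family, read 4.70 to 5.22 in GFP positive cells, against 4.21 to 5.23 in GFP negative cells, a difference of 0.15.

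Probe sets of the same gene often had estimates of both signs, some of them near 0. Of the 21 factors with several probe sets, 11 had at least 2 above the filter, and 8 of these 11 had estimates of both signs (Cux1, Cux2, Meis1, Meis2, Pbx2, Pou3f2, Zeb2 and Zfhx3). Pax6, Tgif2 and Zeb1 had 1 sign. When limma was run on every probe set that met the filter, 18742 in all, 0 of the 50 that stand for these factors passed, where 2.37% of all probe sets did.

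For Zeb1 and Zeb2 the dimmer probe sets had the lower estimates. The brightest probe set of Zeb1 differed by −0.11, and its other probe sets differed by −0.52 and −0.86. That at −0.86 read 8.32 ± 0.27 in GFP positive and 9.18 ± 0.12 in GFP negative cells (SD, n = 3 each), without overlap (limma adjusted p = 0.0851 among all probe sets). For Zeb2 the brightest probe set differed by 0.26 and the other 3 tested ones by −0.58, −0.64 and −0.11. The probe set at −0.58 did not overlap between the groups (7.57 ± 0.21 in GFP positive and 8.15 ± 0.13 in GFP negative cells, SD, n = 3 each). Which part of the transcript each probe set reads was not analysed here.

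**Figure D3:**
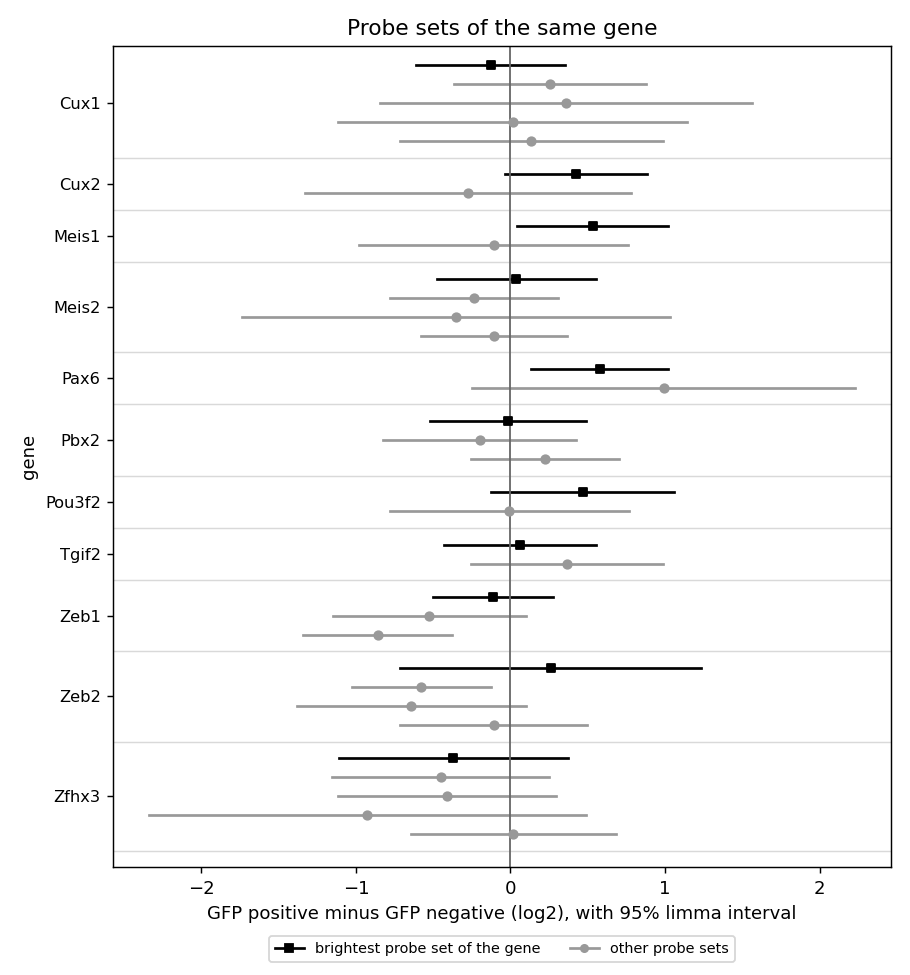
Differences of all tested probe sets for the 11 factors with more than 1 (x axis, GFP positive minus GFP negative in log2, with 95% limma intervals from a fit of all probe sets; y axis, genes); squares are the brightest probe set of a gene and circles the others. Symbols lie on both sides of 0 for 8 of the 11 genes, and for Zeb1 and Zeb2 the dimmer probe sets lie to the left of the brightest.

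Among other homeobox genes no call was made. Of 145 such genes listed, 123 were on the array and 30 were tested. By limma 0 were higher and 0 lower, where 4.46% of all genes tested passed. An unadjusted p under 0.05 was reached by 4 with higher and 3 with lower values, or 23.3%, against 18.2% of all genes tested. The median difference of the 30 was 0.08. Without GFP negative replicate 3, 3 of the 30 were higher and 0 lower. Over all genes tested, that fit called 801 higher, against 248 with all arrays.

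Regional patterning genes outside the homeobox family held 4 calls, or 22.2% of those tested, against 4.46% of all genes tested. The list was chosen with earlier results of these data known, so these shares cannot show an excess in such genes. Of 40 listed, 35 were on the array and 18 were tested, of which 2 were higher (Gli2 and Nr2e1) and 2 lower (Bcl11b and Ebf1), with a median difference of 0.25. Gli2, a transcription factor of Hedgehog signalling that patterns the ventral neural tube, measured 7.21, 7.42 and 7.48 on the GFP positive arrays, against 5.54, 5.89 and 6.29 on the GFP negative arrays. The groups did not overlap, and the difference was 1.46 (95% interval 0.92 to 2.00, limma adjusted p = 0.0192). Nr2e1, an orphan nuclear receptor of neural stem cells, differed by 0.86 (95% interval 0.49 to 1.23, limma adjusted p = 0.0308).

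Bcl11b (also called Ctip2), a zinc finger factor of deep-layer cortical and striatal neurons, measured 4.58, 4.12 and 5.25 on the GFP positive arrays, against 7.03, 7.35 and 5.97 on the GFP negative arrays. GFP negative replicate 3 was the lowest of its group, yet above all GFP positive arrays. The difference was −2.13 (95% interval −3.12 to −1.15, limma adjusted p = 0.0374), or 4.39-fold lower. Ebf1, a helix-loop-helix factor of differentiating striatal neurons, differed by −0.97 (95% interval −1.42 to −0.53, limma adjusted p = 0.0356). These calls depended on single arrays and on the settings. Gli2 kept its call when GFP negative replicate 1 or 3 was left out, Nr2e1, Bcl11b and Ebf1 only when GFP negative replicate 3 was, and in the other fits with 1 array left out the limma adjusted p of these genes was at most 0.164. With the 3′ to 5′ ratio as a covariate all 4 calls were lost, at limma adjusted p = 0.0910 for Gli2, 0.143 for Nr2e1, 0.184 for Bcl11b and 0.157 for Ebf1. That loss was not particular to these genes, as the covariate took the number called higher over all genes from 248 to 9. With the mean of a gene's probe sets Nr2e1 and Ebf1 were also lost (limma adjusted p = 0.101 and 0.111), and with no filter Bcl11b was (0.119).

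**Figure D4:**
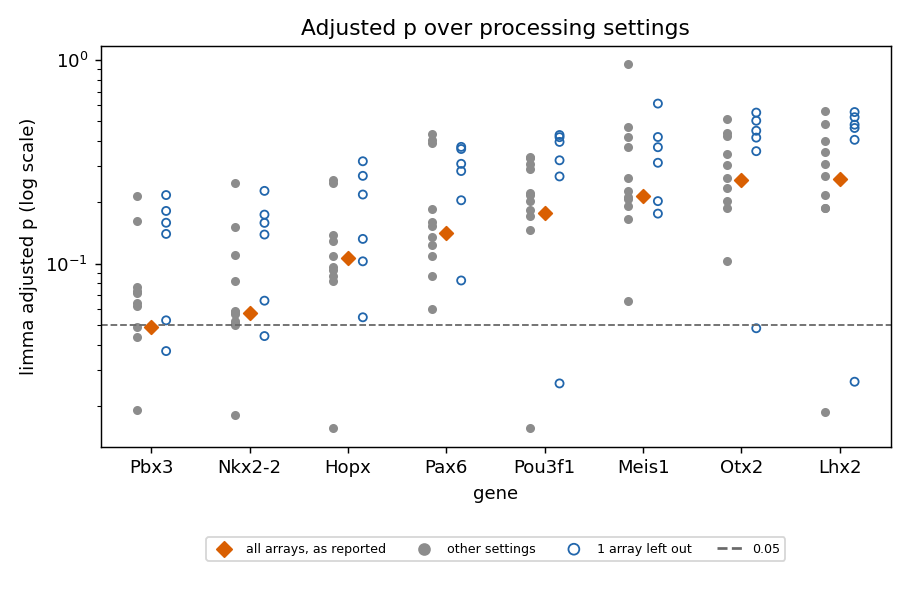
Limma adjusted p (y axis, log scale) of the 8 factors with an unadjusted p under 0.05 (x axis, ordered by that p); diamonds are the reported values over all 6 arrays, grey points the other processing settings, open circles the fits with 1 array left out, and the dashed line is 0.05. The diamond of Pbx3, at 0.0490, lies just under the line and those of the other 7 lie above it, and the lowest open circle of Lhx2, Otx2, Nkx2-2, Pbx3 and Pou3f1, all without GFP negative replicate 3, lies below it.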

How the data were processed

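The deposited log2 values, 1 column per array for 45101 probe sets of the Affymetrix Mouse Genome 430 2.0 array, are the authors' own. The submitters' processing notes name GCRMA as the tool behind these deposited values; no version of it and no genome build is given in the sources used here. No further normalization was applied. Platform annotation named exactly 1 gene for 34945 probe sets and 18193 genes. GCRMA pulls dim probe sets to a narrow floor, so small spreads there are no precision.

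Linear models in limma 3.58.1 (R 4.3.3), moderated by eBayes and with no covariate, compared 3 GFP positive with 3 GFP negative arrays over 10531 genes with at least 3 of 6 arrays at log2 4 or more, with Benjamini-Hochberg adjustment over all of them. The number of arrays limits the precision. The code was tested on simulated data.

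Named are all 38 factors, members of the 2 context lists past the threshold, and genes of 7 cell marker lists: mitosis, astrocyte, neuroblast and neuron, oligodendrocyte lineage, ependymal and choroid plexus, microglia, and endothelial and mural. For these lists at most 2 genes each are named, those past the threshold with the largest difference or otherwise the brightest. Beyond that rule, all tested genes of the neuronal, oligodendrocyte lineage and ependymal lists, with Ttr, Kl and Tmem212, were named after their values were seen. So were the context genes named here that did not pass the threshold. Factors and lists were chosen with earlier results of these data known. Alternatives changed the filter, normalization, probe sets, variance model, covariates and arrays.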

Additional observations from a re-analysis of the deposited data

How the results depend on the processing

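The count of factors above log2 4, 27, was 24 to 31 over the alternatives for it. The 11 factors near background could not be tested for a difference. The counts past the threshold were less stable. With array weights 3 factors were higher and 3 lower, and over the single arrays left out 0 to 2 were higher and 0 to 3 lower, both highest without GFP negative replicate 3. No factor was lower with no filter, a common median, all probe sets, their mean, or trend and robust settings. The same held with the replicate number as a block and with the 3′ to 5′ covariate. Without probe sets of cross-hybridising suffix 0 were lower, but Pbx3 was not tested there, since its other probe set did not meet the filter. Other homeobox genes had 4 higher and 1 lower with array weights and 0 to 3 higher without single arrays. Patterning genes had 1 higher with the mean of probe sets, 0 with the replicate block and 0 with the 3′ to 5′ covariate; 1 lower with no filter and 1 with log2 6, and 0 with all probe sets, their mean, the block or that covariate. Without single arrays 0 to 3 were higher and 0 to 3 lower. Over all genes, 248 higher and 222 lower became 1051 and 603 with array weights, 19 and 8 with the replicate block, 9 and 0 with the covariate, 101 lower with no filter, and 1 to 801 higher and 0 to 443 lower without single arrays.

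Whether same-numbered arrays form pairs is not stated in the labels. Deviations of same-numbered arrays from their group means correlated at −0.25, 0.05 and −0.50 over genes, and those of the other pairs at −0.38 to 0.44. Deviations within 3 arrays sum to 0, so these values cannot decide the pairing. The replicate block left Pbx3 at −0.89 (limma adjusted p = 0.161), with Gli2 at 0.0628, Nr2e1 at 0.163, Bcl11b at 0.120 and Ebf1 at 0.128.

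No estimate with a changed sign was past the threshold. Otx1 was 0.047 with quantile normalization, 0.051 with a common median and 0.13 with the covariate. Under that covariate Dlx2 was −0.58, Meis2 −0.11, Tgif2 −0.085 and Cux1 0.019. Irx2 was −0.019 with array weights. Pbx2 was 0.051 with a common median. At the probe set with the smallest p Meis2 was −0.24, Pbx2 0.22, Zeb2 −0.58 and Cux1 0.26. With the mean of probe sets Meis2 was −0.17, Pbx2 0.002, Zeb2 −0.29 and Cux1 0.070. Without single arrays Otx1 ran from −0.20 to 0.15, Dlx2 from −0.47 to 0.36, Irx2 from −0.073 to 0.36, Meis2 from −0.089 to 0.19, Pbx2 from −0.19 to 0.12, Tgif2 from −0.051 to 0.18, Zeb2 from −0.17 to 0.52, Cux1 from −0.27 to 0.023 and Six5 from −0.18 to 0.33. The causes were not tested.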

Other observations

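Some homeobox genes known from regions behind the forebrain gave signal in these cells. They were chosen after their values were seen and are given as values. Of the 123 other homeobox genes on the array, 29 averaged above log2 4 and 94 did not. En1, a relative of En2, averaged 2.95, and Dbx1, a relative of Dbx2, averaged 2.29. En2, an engrailed factor of midbrain and cerebellum, measured 8.30, 8.25 and 8.51 on the GFP positive arrays, against 8.55, 8.08 and 7.79 on the GFP negative arrays. Pax7, a paired-box factor of the dorsal midbrain and spinal cord, measured 5.97, 6.83 and 6.61 on the GFP positive arrays, against 6.62, 6.75 and 6.50 on the GFP negative arrays. The groups overlapped for both, and the differences were 0.21 for En2 and −0.15 for Pax7. Dbx2, known from progenitors of the spinal cord, averaged 9.66 ± 0.34 in GFP positive and 9.10 ± 0.56 in GFP negative cells (SD, n = 3 each), and did not pass (limma adjusted p = 0.427).

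Of 18 Hox genes listed, which pattern the hindbrain and spinal cord, 16 were on the array and 2 averaged above log2 4. Hoxa3 averaged 7.09 ± 0.33 in GFP positive and 7.39 ± 0.74 in GFP negative cells (SD, n = 3 each). Hoxa5 averaged 5.13 ± 0.39 in GFP positive and 5.94 ± 0.38 in GFP negative cells (SD, n = 3 each), without overlap and without passing (limma adjusted p = 0.176). Both were read from probe sets of the kind that can match other transcripts.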
